A study of Mus musculus with 12 samples.

Results

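The genes that make, move and consume citrate were compared between prostates of null mice, which carry a null allele on both chromosome copies, and wild-type prostates. They comprised 9 genes, taken by name from the 23284 genes of the expression table: Cs, Aco1, Slc25a1, Acly, Idh1, Idh2, Idh3a, Idh3b and Slc13a5. In null prostate, with all libraries fitted singly, Idh1 rose 1.42-fold and Acly 1.16-fold, while Slc25a1 fell to 0.730 and Idh2 to 0.761 of the wild-type level. Only Slc25a1 also passed, narrowly, when similar libraries were averaged, and Acly was not called after quantile normalization. Cs, Aco1, Idh3a and Idh3b were not called on the deposited scale, although Cs, Aco1 and Idh3b were called lower under 2 other scalings, and Slc13a5 lay at the level of undetected genes in both genotypes.

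The study profiled whole prostate, snap frozen, by poly-A selected RNA sequencing, with 6 null and 6 wild-type libraries. All mice were 4 months old and of a hybrid 129/SvImJ and C57Bl/6J background, and the labels give no difference between the groups other than genotype. Whether each library is a different animal is not in the labels; p-values therefore reflect spread among libraries that may be technical. Values are log2 expression as deposited, without read counts, and library depth is therefore unknown.

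Citrate forms in the mitochondrion when citrate synthase joins acetyl-CoA to oxaloacetate, and aconitase then turns it into isocitrate for oxidation by the isocitrate dehydrogenases. Prostate epithelium is known for stopping this route early and secreting citrate into prostatic fluid. Citrate that leaves the mitochondrion through the carrier encoded by Slc25a1 can also be split by ATP citrate lyase, encoded by Acly, into the acetyl-CoA used for fatty acid and sterol synthesis.

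The 6 libraries of each genotype formed 2 sets of 3. Null libraries 1, 2 and 5 made up one null set and null libraries 3, 4 and 6 the other, and wild-type libraries 1 to 3 and 4 to 6 made up the wild-type sets. In every set 1 library (null 5, null 6, wild-type 3 and wild-type 5) lay close to an equal mix of its 2 set members, at a median distance of 0.029 to 0.036 on the log2 scale over 3633 genes (mean 10 or more). Summed over both sets, this distance was 0.059 in null and 0.070 in wild-type libraries, against 0.139 and 0.121 for the next best division. The median absolute difference between libraries over the same genes was 0.0603 within sets (0.0388 to 0.112), 0.125 across sets of a genotype (0.103 to 0.169) and 0.228 between genotypes (0.199 to 0.258). The sets were chosen over these genes, so their smaller inner differences are partly built in. Since members of a set could share material, each result is given from a limma fit over 12 libraries and from a second fit over the 4 set means. A gene is called at a limma adjusted p under 0.05.

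The sample labelled prostate held prostate markers, and levels of markers of other tissues differed between genotypes. The summed level of 6 luminal prostate markers was 19.18 to 19.62 in null and 19.93 to 20.11 in wild-type libraries. Of 7 seminal vesicle markers, 6 were higher in every null library, with a sum of 16.71 to 20.26 in null and 6.39 to 11.61 in wild-type libraries, where Svs1, Svs3a, Svs3b and Svs6 averaged under 3.51, the 95th percentile of 1123 olfactory receptor genes. All 6 macrophage markers in the table were lower in every null library, with sums of 10.37 to 10.76 in null libraries, 12.06 to 12.10 in the wild-type set of libraries 1 to 3 and 11.17 to 11.27 in the set of libraries 4 to 6. Of 4 B cell markers 3 were lower in every null library, with sums of 5.77 to 6.53 in null and 7.20 to 8.53 in wild-type libraries. Of 4 urothelial markers 2, Upk1b and Upk2, were higher in every null library, with sums of 13.22 to 14.45 in null and 12.54 to 12.78 in wild-type libraries. Upk1b had the highest level of the 4 and weighed most in these sums. Upk1a overlapped between the genotypes (difference 0.16, limma adjusted p = 0.0722). Upk3a also overlapped and lay near the 95th percentile, at means of 3.95 in null and 3.71 in wild-type libraries. Of 8 adipocyte markers 4 were called higher over 12 libraries and 2 over set means, with a median difference of 1.37. Their sums were 7.79 in null library 2, 9.80 to 11.52 in the other null libraries and 8.04 to 9.40 in wild-type libraries, and none of the 8 was higher in every null library. Of 7 skeletal muscle markers 1, Acta1, was higher and 3, Myh1, Myh2 and Actn3, were lower in every null library. The sums were 11.67 to 12.26 in null and 11.47 to 11.61 in wild-type libraries. Acta1 had the highest level of the 7 and weighed most in these sums, which say little of the other markers. Myh4 averaged under the 95th percentile in both genotypes and Myh1 and Myh2 in null libraries. The part of these tissues in the results below was not tested, and in bulk tissue fewer cells of a type and less RNA per cell cannot be told apart.

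Of the 9 citrate genes 8 passed the filter on low values (at least 4 in at least 6 libraries), and 4 of the 8 were called over 12 libraries, 2 higher and 2 lower. Of all 15096 tested genes 53.1% were called, 28.0% higher and 25.1% lower, so the citrate genes were called about as often as genes in general. The median difference of the citrate genes, null minus wild type, was -0.060, beside 0.012 for all tested genes and 0.054 for those at these levels. Their median absolute difference was 0.15, beside 0.25 and 0.21. Over set means 1 of 8 passed, as lower, where 14.5% of all tested genes did, 7.58% higher and 6.96% lower. The 4 called genes were also those in which the genotypes did not overlap, 2 with null above and 2 with null below, beside 17.4% and 15.2% of all tested genes. The split into 2 higher and 2 lower became 1 higher and 5 lower after quantile normalization and 2 higher and 5 lower after upper quartile scaling, which lowered all differences by 0.071 and turned the balance over all genes to 3366 higher and 4874 lower, against 4224 and 3789 as deposited.

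**Figure D1:**
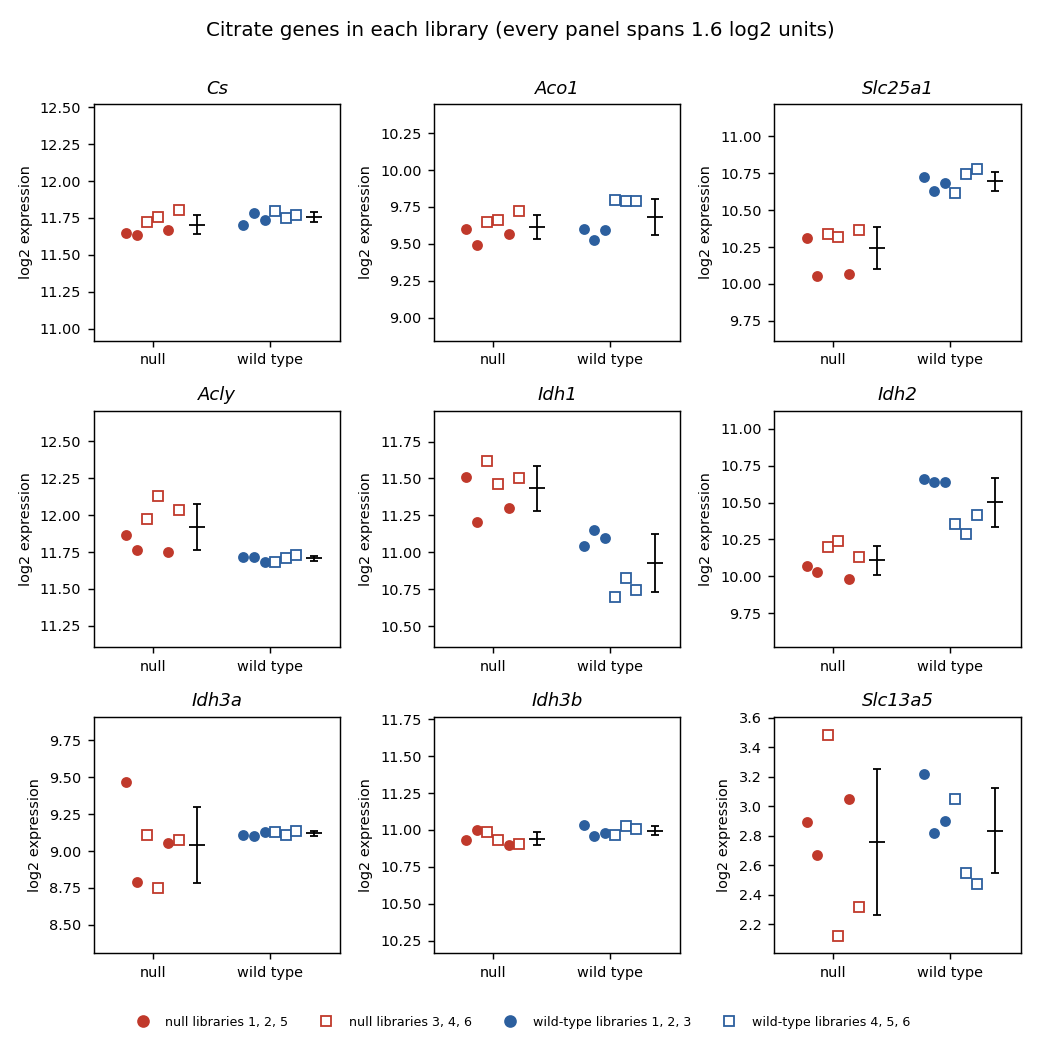
Log2 expression of the 9 citrate genes in each library, null on the left and wild type on the right of every panel. Filled circles and open squares mark the 2 sets of libraries of a genotype, and the bar beside each group is the mean with its SD over 6 libraries. Idh1 and Acly lie higher in all null libraries, Slc25a1 and Idh2 lie lower, and Idh3a spreads from 8.75 to 9.47 in null libraries against 9.10 to 9.14 in wild-type libraries.

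Cs encodes citrate synthase, the enzyme that makes citrate. In null libraries 1 to 6 Cs stood at 11.65, 11.64, 11.72, 11.76, 11.67 and 11.80, and in wild-type libraries 1 to 6 at 11.70, 11.78, 11.74, 11.79, 11.75 and 11.77. The genotypes overlapped, and null libraries 1, 2 and 5 lay lowest. The means were 11.71 ± 0.066 in null and 11.76 ± 0.034 in wild-type libraries (SD, n = 6 each), a difference of -0.050 with a 95% interval of -0.14 to 0.036 (limma adjusted p = 0.319; 0.769 over set means). This result depended on scaling, since Cs was called lower by 0.16 after quantile normalization (adjusted p = 0.000685) and by 0.12 after upper quartile scaling (adjusted p = 0.00572). Without null libraries 3, 4 and 6 Cs was also called lower, by 0.10 (adjusted p = 0.0443), and without null libraries 1, 2 and 5 the difference was 0.0046.

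Aco1 encodes the cytosolic aconitase, which becomes iron regulatory protein 1 when it loses its iron-sulfur cluster. Aco1 stood at 9.60, 9.50, 9.65, 9.66, 9.56 and 9.72 in null libraries 1 to 6 and at 9.60, 9.53, 9.59, 9.79, 9.79 and 9.79 in wild-type libraries 1 to 6. The wild-type sets stood further apart, at means of 9.57 and 9.79, than the genotypes did, at 9.62 ± 0.081 in null and 9.68 ± 0.12 in wild-type libraries (SD, n = 6 each). The difference of -0.066 was not called (limma adjusted p = 0.373; 0.728 over set means). It was called lower without wild-type libraries 1 to 3, by 0.18 (adjusted p = 0.0252), and after quantile normalization, by 0.13 (adjusted p = 0.0375), and upper quartile scaling, by 0.14 (adjusted p = 0.0301), and it was 0.044 without wild-type libraries 4 to 6.

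Slc25a1 encodes the mitochondrial citrate carrier, which exchanges citrate for malate across the inner membrane. It stood at 10.31, 10.05, 10.34, 10.32, 10.07 and 10.36 in null libraries 1 to 6 and at 10.73, 10.63, 10.68, 10.62, 10.74 and 10.78 in wild-type libraries 1 to 6. Every null library lay under every wild-type library, and null libraries 2 and 5 lay lowest. Slc25a1 fell by 0.45 ± 0.061 (SE), with means of 10.24 ± 0.14 in null and 10.70 ± 0.065 in wild-type libraries (SD, n = 6 each; limma adjusted p = 2.29e-05). It was the 1 citrate gene that also passed over set means (adjusted p = 0.0421), and there it missed the threshold in limma without trend or robust moderation, where 0 of the 8 were called and 2 had an unadjusted p under 0.05. The summed seminal vesicle markers were highest in the same null libraries, at 20.26 in library 2 and 19.61 in library 5, against 16.71 to 18.17 in the other null libraries. Not every marker followed the sum: Svs1 was highest in null library 1, and Svs3a, Svs3b and Svs6 were higher in null library 4 than in library 5. The part of these markers in the Slc25a1 difference was not tested. Set against set, the difference ran from -0.57, for null libraries 1, 2 and 5 minus wild-type libraries 4 to 6, to -0.34, for null libraries 3, 4 and 6 minus wild-type libraries 1 to 3.

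Acly stood at 11.87, 11.76, 11.98, 12.13, 11.75 and 12.03 in null libraries 1 to 6 and at 11.71, 11.72, 11.68, 11.68, 11.71 and 11.73 in wild-type libraries 1 to 6. All null libraries lay above all wild-type libraries, narrowly for null libraries 2 and 5. Acly rose by 0.21 ± 0.061 (SE), with means of 11.92 ± 0.15 in null and 11.71 ± 0.019 in wild-type libraries (SD, n = 6 each; limma adjusted p = 0.00919) but not over set means, where adjusted p was 0.278. The null sets differed, with means of 11.79 in libraries 1, 2 and 5 and 12.05 in libraries 3, 4 and 6, and without libraries 3, 4 and 6 the difference was 0.086 (adjusted p = 0.103). After quantile normalization Acly was not called (difference 0.10, adjusted p = 0.0758), and without either wild-type set it was 0.21 with adjusted p of 0.0547 and 0.0581. The summed seminal vesicle markers were 18.17, 20.26 and 19.61 in null libraries 1, 2 and 5 and 16.71, 17.88 and 17.44 in libraries 3, 4 and 6. Single markers were split: by set mean Svs1, Svs2 and Svs5 were higher in libraries 1, 2 and 5. Svs3a, Svs3b, Svs4 and Svs6 were higher in libraries 3, 4 and 6. The summed adipocyte markers were 11.52, 7.79 and 10.56 in null libraries 1, 2 and 5 against 9.80, 10.57 and 10.27 in libraries 3, 4 and 6. The summed urothelial markers were 13.22, 13.53 and 13.37 in null libraries 1, 2 and 5 and 13.72, 14.45 and 14.15 in libraries 3, 4 and 6, and both they and Acly were highest in null library 4. Of the single urothelial markers, Upk1b was highest in null library 4, Upk2 in null library 3, and Upk1a and Upk3a in null library 1. The summed prostate markers were 19.18 to 19.23 in null libraries 1, 2 and 5 and 19.38 to 19.62 in libraries 3, 4 and 6. The part of these tissues in the Acly difference was not tested.

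**Figure D2:**
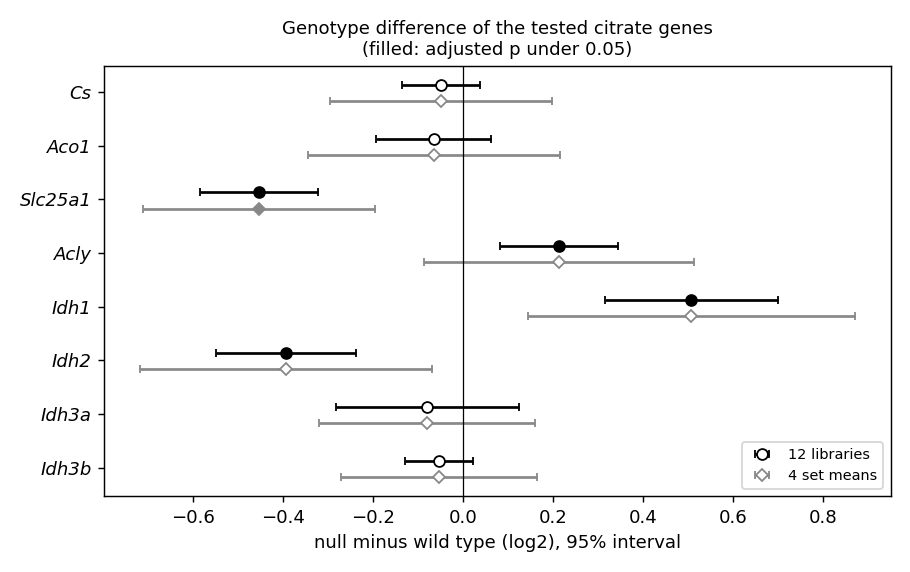
Difference of each tested citrate gene, null minus wild type, on the log2 scale, with its 95% interval from limma over 12 libraries (black circles) and over 4 set means (grey diamonds); filled symbols passed an adjusted p under 0.05. Idh1, Acly, Slc25a1 and Idh2 passed over 12 libraries and Slc25a1 alone over set means, where Idh1 (0.14 to 0.87) and Idh2 (-0.72 to -0.068) had unadjusted intervals that left out 0.

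Idh1 encodes the cytosolic and peroxisomal isocitrate dehydrogenase, which makes NADPH. Its values were 11.51, 11.21, 11.62, 11.46, 11.30 and 11.50 in null libraries 1 to 6 and 11.04, 11.15, 11.10, 10.70, 10.82 and 10.74 in wild-type libraries 1 to 6. The genotypes did not overlap, the closest values being 11.21 in null library 2 and 11.15 in wild-type library 2. Idh1 rose by 0.51 ± 0.090 (SE), with means of 11.43 ± 0.15 in null and 10.93 ± 0.19 in wild-type libraries (SD, n = 6 each; limma adjusted p = 0.000287), and missed the threshold over set means, with adjusted p = 0.0736. Wild-type sets averaged 11.10 and 10.76, so the difference was 0.24 between null libraries 1, 2 and 5 and wild-type libraries 1 to 3 and 0.77 between null libraries 3, 4 and 6 and wild-type libraries 4 to 6.

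Idh2 encodes the mitochondrial enzyme that, like the product of Idh1, uses NADP. It stood at 10.07, 10.03, 10.20, 10.24, 9.98 and 10.13 in null libraries 1 to 6 and at 10.66, 10.64, 10.64, 10.36, 10.29 and 10.42 in wild-type libraries 1 to 6. The highest null library, 10.24, lay close under the lowest wild-type library, 10.29. Idh2 fell by 0.39 ± 0.073 (SE), with means of 10.11 ± 0.10 in null and 10.50 ± 0.17 in wild-type libraries (SD, n = 6 each; limma adjusted p = 0.000394), and missed the threshold over set means as well (adjusted p = 0.101). Between sets the difference ranged from -0.16 for null libraries 3, 4 and 6 against wild-type libraries 4 to 6 to -0.62 for null libraries 1, 2 and 5 against wild-type libraries 1 to 3. The macrophage and B cell sums were likewise lowest in null libraries and higher in wild-type libraries 1 to 3 than in 4 to 6. The seminal vesicle sums (11.53 to 11.61 against 6.39 to 6.72) and adipocyte sums (9.29 to 9.40 against 8.04 to 8.10) divided the wild-type sets in the same direction. Unlike Idh2, the seminal vesicle sums were highest in null libraries. Prostate and urothelial sums were lower in wild-type libraries 1 to 3 than in 4 to 6. Between the null sets Idh2 was higher in libraries 3, 4 and 6, with a mean of 10.19 against 10.03 in libraries 1, 2 and 5. The macrophage sums had a lower range there, 10.37 to 10.50 against 10.41 to 10.76, and the 2 ranges overlapped. The B cell sums also overlapped, at 5.94 to 6.09 against 5.77 to 6.53. The part of these cells and tissues in the Idh2 difference was not tested.

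Promoter sequence is shown for Slc25a1, the one member that passed in both fits, and for Idh1, the member with the largest rise, so that their start regions can be compared. Promoters of 8 of the 9 genes matched the RefSeq table of build GRCm38.p6, which is not the build mm9 named in the submitters' processing notes. The stretches are the 250 bases before an annotated start, on the minus strand of chr16:17928220-17928469 for Slc25a1 and chr1:65179143-65179392 for the downstream of 2 annotated Idh1 starts. Capitals mark an E-box.

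Slc25a1: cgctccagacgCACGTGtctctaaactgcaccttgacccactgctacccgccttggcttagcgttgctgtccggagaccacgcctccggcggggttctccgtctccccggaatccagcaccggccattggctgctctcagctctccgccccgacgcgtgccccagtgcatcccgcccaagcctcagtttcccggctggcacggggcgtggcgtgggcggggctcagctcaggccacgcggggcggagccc

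Idh1: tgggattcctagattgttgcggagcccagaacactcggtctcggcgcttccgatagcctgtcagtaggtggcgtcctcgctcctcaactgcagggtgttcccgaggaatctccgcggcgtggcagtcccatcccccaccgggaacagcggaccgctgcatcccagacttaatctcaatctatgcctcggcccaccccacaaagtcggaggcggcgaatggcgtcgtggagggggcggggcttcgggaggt

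Both stretches are GC-rich, with 70.0% G and C for Slc25a1 and 63.6% for Idh1, against a median of 52.4% over 32536 promoters. On both strands of the 10 promoters of these genes 4 motifs were searched. The palindromic E-box CACGTG, which basic helix-loop-helix factors bind, was found once, 239 bases before the Slc25a1 start, and occurs in 6.04% of all promoters. The sterol regulatory element TCACNCCAC (1.04% of promoters), the estrogen-related receptor element TCAAGGTCA (0.375%) and the NRF1 core GCATGCGC (2.27%) did not occur in these windows. The motif found overlapped no other motif searched, and a match of letters shows no binding.

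The remaining dehydrogenase genes, Idh3a and Idh3b, encode subunits of the NAD-dependent enzyme of the citric acid cycle. Idh3a stood at 9.47, 8.79, 9.11, 8.75, 9.05 and 9.07 in null libraries 1 to 6 and at 9.11, 9.10, 9.13, 9.13, 9.11 and 9.14 in wild-type libraries 1 to 6. Null library 1 lay above and null libraries 2 and 4 below all wild-type libraries, so the genotypes overlapped (difference -0.080, 95% interval -0.28 to 0.12, limma adjusted p = 0.506; 0.615 over set means). The SD was 0.26 in null and 0.015 in wild-type libraries (n = 6 each), beside median SDs of 0.103 and 0.0833 over 5949 genes of like mean level. Idh3b showed no such spread, with 10.94 ± 0.043 in null and 10.99 ± 0.031 in wild-type libraries (SD, n = 6 each) and a difference of -0.053 (95% interval -0.13 to 0.022, limma adjusted p = 0.221; 0.716 over set means). Idh3b was called lower by 0.13 after quantile normalization (adjusted p = 0.00854) and by 0.12 after upper quartile scaling (adjusted p = 0.00992). Idh3g, the remaining subunit gene, differed by -0.035 (limma adjusted p = 0.643).

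Slc13a5 encodes the plasma membrane citrate importer, best known from liver. Its values, 2.12 to 3.48 in null and 2.47 to 3.22 in wild-type libraries, lay among those of olfactory receptor genes, which had a median of 2.85, and it was not tested. Of 5 hepatocyte markers, Alb, Apoa1 and Serpina1a averaged under 3.51 in both genotypes and Apob in wild-type libraries, with sums of 5.92 to 6.47 in null and 5.97 to 6.32 in wild-type libraries.

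The call of each of Idh1, Idh2, Slc25a1 and Acly was kept when any 1 of the 12 libraries was left out. The differences then ranged from 0.46 to 0.55 for Idh1, from -0.44 to -0.36 for Idh2, from -0.48 to -0.42 for Slc25a1 and from 0.17 to 0.25 for Acly. The 4 were also called without the library nearest to a mix in each set, with 4 null against 4 wild-type libraries, Acly at an adjusted p of 0.0496. No citrate gene differed by as much as 2-fold, and by absolute difference Idh1 ranked 3432 and Slc25a1 4014 among the 15096 tested genes.

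Within a library, the log2 difference between 2 citrate genes does not depend on a scaling factor shared by all genes of that library, and gene length cancels when such differences are compared across libraries. These differences were examined after the values of single genes were seen and are given without a test. Idh1 minus Idh2 was 1.44, 1.18, 1.42, 1.22, 1.32 and 1.37 in null libraries 1 to 6 and 0.38, 0.51, 0.46, 0.34, 0.53 and 0.33 in wild-type libraries 1 to 6. The ratio of the cytosolic to the mitochondrial NADP-dependent transcript was thus 1.87 times as high in null libraries, and although each gene differed between wild-type sets, their difference averaged 0.43 ± 0.088 over all 6 wild-type libraries (SD). Acly minus Slc25a1, the lyase relative to the carrier that supplies it, averaged 1.68 ± 0.085 in null and 1.01 ± 0.056 in wild-type libraries (SD, n = 6 each), a ratio 1.59 times as high. Of all 28 pairs the widest contrast was that of Idh1 minus Slc25a1, at 1.14 to 1.28 in null and -0.03 to 0.52 in wild-type libraries. Cs minus Idh3b overlapped between the genotypes, at 0.76 ± 0.091 in null and 0.76 ± 0.062 in wild-type libraries (SD, n = 6 each).

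**Figure D3:**
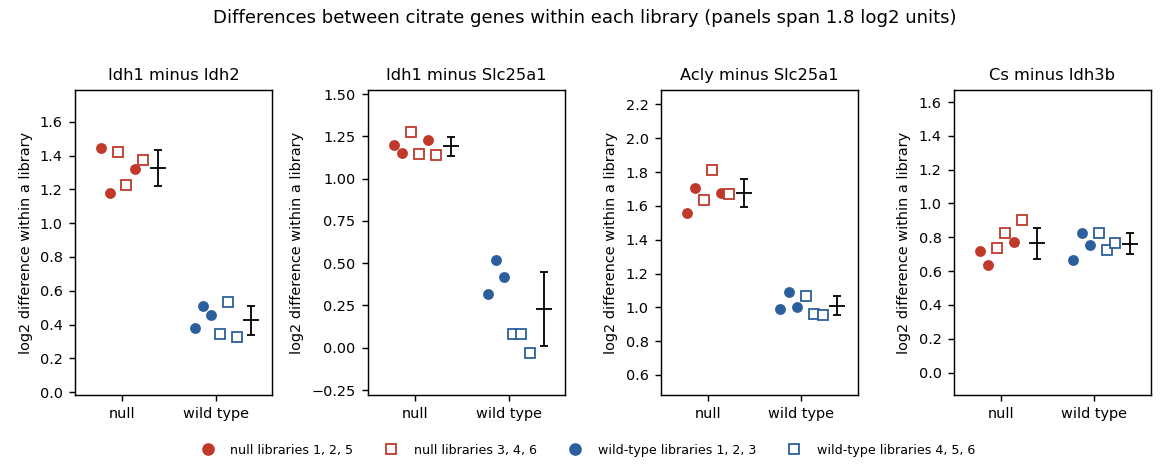
Log2 difference between pairs of citrate genes within each library, null on the left and wild type on the right; filled circles and open squares mark the 2 sets of a genotype, and bars give the mean with its SD over 6 libraries. Idh1 minus Idh2 lies at 1.18 to 1.44 in null and 0.33 to 0.53 in wild-type libraries, while Cs minus Idh3b overlaps between the genotypes.

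The genes whose centred profiles over the 12 libraries lay nearest to those of the members with the largest called differences were listed by root mean square distance. For Idh1 these were Foxn3 (0.072), Plscr2 (0.074) and Vgll4 (0.079), which rose by 0.43, 0.53 and 0.53. For Slc25a1 they were Tbc1d7 (0.061), Rhpn2 (0.065) and Grhl1 (0.067), which fell by 0.37, 0.44 and 0.40. For Idh2 they were Ost4 (0.067), Irf8 (0.071) and Tsr2 (0.075), which fell by 0.36, 0.41 and 0.29. Irf8 encodes a transcription factor of macrophages and B cells, and the part of these cells in its profile was not tested.

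Among 14 other enzymes of the citric acid cycle, 3 were called higher and 6 lower over 12 libraries, 64.3% against the 53.1% of all tested genes, and their median difference was -0.098. Over set means 1 was called, Fh1. Fh1, fumarase, fell by 0.57 ± 0.054 (SE), to 10.30 ± 0.091 in null against 10.87 ± 0.093 in wild-type libraries (SD, n = 6 each; limma adjusted p = 6.80e-07; 0.0252 over set means). Of succinate dehydrogenase subunits, Sdha fell by 0.15, Sdhc by 0.22 and Sdhd by 0.21, while Sdhb differed by -0.094 and was not called (limma adjusted p = 0.206). Ogdh, a subunit of the oxoglutarate dehydrogenase complex, rose by 0.23. Over set means the adjusted p was 0.339 for Sdha, 0.267 for Sdhc, 0.231 for Sdhd and 0.215 for Ogdh.

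Of 14 tested genes for the entry of pyruvate (of 17 listed), 4 were called higher and 4 lower, 57.1% against 53.1% of all tested genes, with a median difference of -0.0047. Over set means 1 passed, where 14.5% of all tested genes did. Pcx, pyruvate carboxylase, which supplies the oxaloacetate for citrate synthesis, rose by 0.58 ± 0.068 (SE), to 10.45 ± 0.14 in null against 9.87 ± 0.11 in wild-type libraries (SD, n = 6 each; limma adjusted p = 6.13e-06; 0.0212 over set means). Pdk3, a kinase that inhibits pyruvate dehydrogenase, fell by 0.68 (limma adjusted p = 0.000311; 0.0670 over set means). The mitochondrial pyruvate carrier subunits Brp44 and Brp44l, now named Mpc2 and Mpc1, fell by 0.22 and 0.36 (limma adjusted p = 0.00182 and 0.00425; 0.181 and 0.186 over set means).

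Of 13 tested genes for cytosolic use of citrate and related carriers, 4 were called higher and 5 lower, 69.2% against 53.1% of all tested genes, with a median difference of -0.084. Over set means 1 was higher and 2 were lower, where 7.58% and 6.96% of all tested genes were. Fasn, the fatty acid synthase downstream of Acly, rose by 0.72 ± 0.046 (SE), to 11.93 ± 0.079 in null against 11.21 ± 0.062 in wild-type libraries (SD, n = 6 each; limma adjusted p = 1.48e-08; 0.0115 over set means). Mlycd, which breaks down malonyl-CoA, fell by 0.57 (limma adjusted p = 4.25e-08; 0.0143 over set means), and Me1, the cytosolic malic enzyme, fell by 0.81 (limma adjusted p = 4.57e-05; 0.0475 over set means). Slc25a11, the carrier for oxoglutarate and malate, fell by 0.36, and over set means its adjusted p was 0.0642. Adipocytes also express Fasn, and the part of the adipocyte markers, whose sums are given above, in its difference was not tested.

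Of 9 genes that link aspartate and glutamate to the cycle, 2 were called higher and 3 lower, 55.6% against 53.1% of all tested genes, with a median difference of -0.050. By limma over set means 0 were called, where 14.5% of all tested genes were, and 4 had an unadjusted p under 0.05. Gls2, a glutaminase, fell by 1.53, to 4.97 ± 0.26 in null against 6.50 ± 0.66 in wild-type libraries (SD, n = 6 each; limma adjusted p = 0.000206). Slc25a13, a mitochondrial carrier of aspartate and glutamate, fell by 0.49, and the glutamate carrier gene Slc25a22 rose by 0.15.

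Of 6 genes of iron handling tied to iron regulatory proteins, 3 were called higher and 1 lower, 66.7% against 53.1% of all tested genes, with a median difference of 0.28. Over set means 2 were higher, where 7.58% of all tested genes were. Slc11a2, the iron transporter DMT1, rose by 0.81 ± 0.050 (SE; limma adjusted p = 9.93e-09; 0.0111 over set means), and Ireb2, which encodes the second iron regulatory protein, rose by 0.49 ± 0.059 (SE; limma adjusted p = 8.11e-06; 0.0475 over set means). Slc40a1, the iron exporter ferroportin, rose by 0.45, and Fth1, ferritin heavy chain, fell by 0.28, and neither passed over set means (adjusted p = 0.152 and 0.222). Fth1 has many near-identical pseudogenes, so its counts may be split and its value is uncertain. The remaining genes of the list, Tfrc and Ftl1, differed by 0.11 and 0.028 and were not called (limma adjusted p = 0.356 and 0.755).

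**Figure D4:**
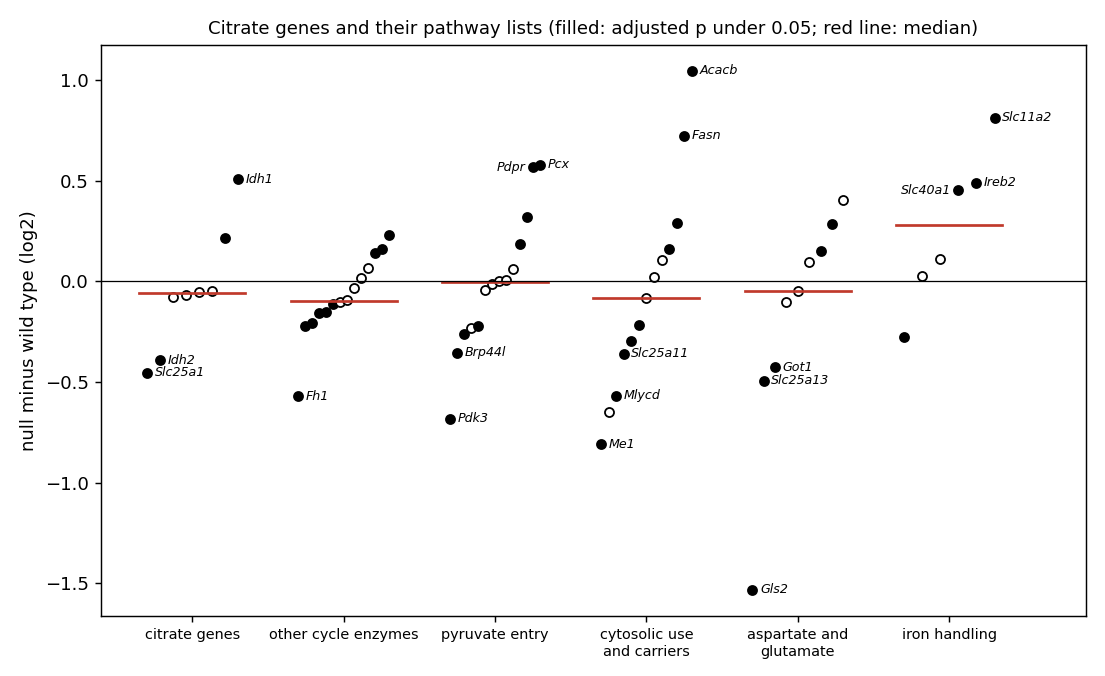
Difference of each tested gene, null minus wild type, on the log2 scale, in the citrate genes and 5 related lists; filled points passed limma over 12 libraries, names are given for called genes beyond about 0.35, and the red line is the median of a list. List medians lie between -0.098 and 0.28, with called genes on both sides of 0 in every list.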

How the data were processed

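Per the labels' protocols, RNA was isolated from prostate tissue, selected for poly-A, made into Illumina TruSeq libraries and sequenced on a HiSeq instrument. Tools listed without roles in the submitters' processing notes are DESeq, Cufflinks 2.0.2, TopHat2 2.0.4 and CASAVA 1.8.2, with build mm9. The deposited values are on a log2 scale (1.07 to 21.6) and look variance-stabilised. No source used here states the transformation. Such values compress differences of low genes.

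Without further scaling, the values went into limma 3.58.1 (R 4.3.3; trend and robust moderation, genotype as the only term, Benjamini-Hochberg over all genes that reached 4 in 6 or more libraries), checked on simulated data. Sets were found as the division of 6 libraries into triplets with the smallest distance of 1 library from the average of the other two. A summed level is the log2 of the sum of linear values. Named genes are the 9 members, up to 4 called genes of each list by adjusted p, and nearest profiles of the 3 members with the largest called difference. Idh3g, Sdhb, Sdhc, Tfrc, Ftl1 and the marker genes were named outside that rule. Members and lists were chosen with earlier results of these data known. Alternatives were other scalings, filters and variance models, and libraries or sets left out. The levels of the targeted gene and of some listed genes are not reported here.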

Additional observations from a re-analysis of the deposited data

Results flagged for a closer look

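Of 58 groups of 6 libraries (29 named genes in both genotypes), 1 had a library set apart from the rest by more than Dixon's 95% critical value. Brp44 stood at 8.88 in null library 5, against 9.04 to 9.13 in the other null libraries. Chance alone flags about 1 in 20 groups.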

How the results depend on the processing

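Over 185 repeats of the member differences, 168 were scored as unchanged. The score was by direction and side of the threshold, or by size alone for Slc13a5, which had no main test. Changes of filter or variance model and the use of set means could not alter a difference, only its p-value. Repeats without 1 library shared all others with the main fit, so the repeats were not independent. The 4 called members fell to 1 over set means, where 2195 genes in all were called against 8013 over 12 libraries, and rose to 7 after upper quartile scaling. Over set means without trend or robust moderation, limma called 0 members (2 at an unadjusted p under 0.05) and 1387 genes. The difference of Cs turned to 0.0046 without null libraries 1, 2 and 5, and that of Aco1 to 0.044 without wild-type libraries 4 to 6; neither was called. The cause was not tested. Filters at 5 or none and a fit without trend or robust moderation over 12 libraries left 4 members called. No paired analysis was possible because the labels give no replicate numbers that link the genotypes. The depth is unknown, so a limit of detection can be read only from the level of undetected genes, which Slc13a5 did not exceed.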

Other observations

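Idh3a varied far more among null than among wild-type libraries, a contrast noticed after its values were seen. Its SD in null libraries was 17.1 times that in wild-type libraries, and 0.084% of 5949 genes at like levels had a larger ratio. Of these genes 7.68% had a larger null SD and 0.168% a smaller wild-type SD. The null spread lay within sets, with 9.47 against 8.79 in null libraries 1 and 2 and 9.11 against 8.75 in null libraries 3 and 4, and null libraries 5 and 6 stood between or near these values at 9.05 and 9.07. Acly had the next largest ratio among the citrate genes, 7.97, exceeded by 0.723% of genes, and there the null libraries differed by set. For Idh1 the ratio was 0.779.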
